A study of Homo sapiens with 4 samples.

Results

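Macroautophagy genes of MOLM-14 cells, 40 in all, were followed after rapamycin: the machinery that builds the autophagosome and the receptors that load it. The 40 were taken by gene symbol from a list that runs from the ULK kinase complex to autophagosome fusion. Each was matched through its Entrez gene number to 1 probe set among the 24241 named genes on the arrays. MOLM-14 is a line of human acute myeloid leukemia cells with an internal tandem duplication of FLT3 and a KMT2A fusion. Rapamycin, in complex with FKBP12, inhibits mTORC1, which senses nutrients and growth signals. The series compared 2 control cultures with 2 cultures given 10 nM rapamycin for 24 hours, on 1 array each. The labels' growth and treatment texts describe MOLM-14 cells carrying doxycycline-inducible hairpins, scrambled or against Pim2, kept for 72 hours in 200 ng/ml doxycycline. The design and the agent labels name rapamycin alone, so whether all 4 cultures also carried a hairpin and doxycycline was not settled here. The design calls the cultures biological replicates, and nothing further says how they were separated, so the p-values reflect the spread among 4 arrays, and that spread may be partly technical.

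Autophagy delivers cytoplasm and organelles to the lysosome inside a double membrane that grows around the cargo. In fed cells mTORC1 phosphorylates ULK1 and ATG13 and holds the process back, and it also keeps the transcription factors TFEB and TFE3 in the cytoplasm. When mTORC1 is inhibited, the ULK complex starts the membrane, a phosphatidylinositol 3-kinase (PI3K) complex marks it, 2 ubiquitin-like conjugation systems attach ATG8 proteins to it, receptors bind the cargo, and the closed vesicle fuses with lysosomes. The arrays read transcript abundance over a whole culture. They do not read phosphorylation, lipidation or autophagic flux, and fewer expressing cells and less RNA per cell cannot be told apart.

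None of the 38 members that were tested passed the test, and none differed by more than 1.5-fold. The test was limma's moderated test with p-values adjusted over 14635 genes and a call at an adjusted p under 0.05, and it gave 0 higher and 0 lower among the members. Over all genes tested the same test called 1.28%, made up of 0.417% higher and 0.861% lower. At an unadjusted p under 0.05, 3 members were higher and 4 were lower, a total of 18.4%, against 15.4% of all genes (7.22% higher and 8.23% lower). Without rapamycin replicate 1, 2 members were called higher and 4 lower, when 3.03% of all genes were called higher and 5.86% lower, and without any of the other arrays 0 were called. A group left with 1 array gives no spread of its own: the residual spread then comes from the 2 arrays of the other group, moderated over all genes, and the lone array is assumed to vary like them. ULK2 and GABARAPL1 lay under the signal minimum of 4.86 log2 units and were not tested.

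The differences were small and ran in both directions. Rapamycin minus control ranged from -0.33 for EPG5 to 0.48 for ATG7 on the log2 scale, with 16 members above 0 and 22 below. The median was -0.03, and the median over all genes tested was 0.01. A difference of more than 1.5-fold was found in 181 of all genes tested and in 0 members. The 95% interval of the difference lay wholly inside 1.5-fold in either direction for 35 members (92.1%), as it did for 88.1% of all genes. For the other 3, ULK1, RUBCN and ATG7, the interval reached past 1.5-fold on the upper side.

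**Figure D1:**
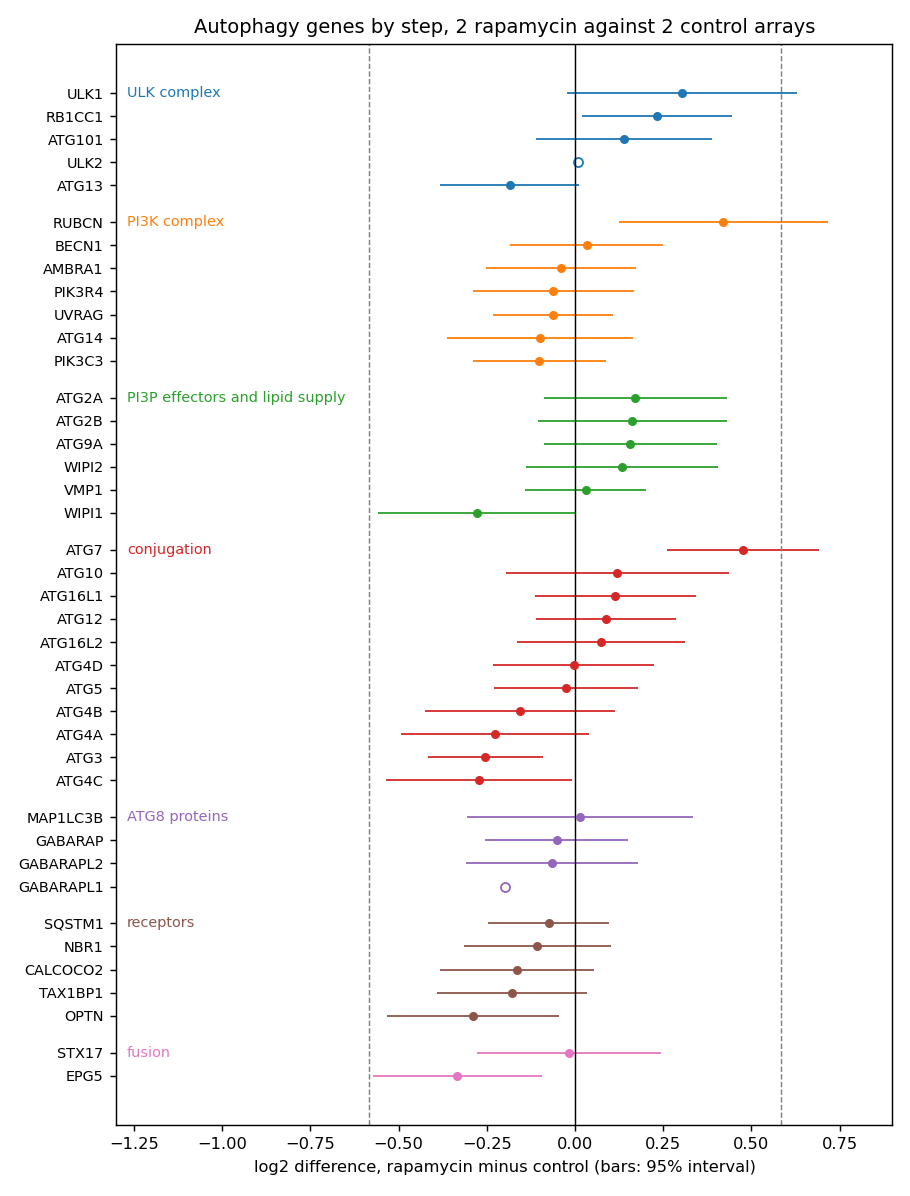
Log2 difference between rapamycin and control for each of the 40 autophagy genes, grouped by step. Filled points carry the 95% interval from limma, open points are ULK2 and GABARAPL1, which were under the signal minimum, and dashed lines mark 1.5-fold. The intervals of ULK1, RUBCN and ATG7 cross the upper dashed line, and none crosses the lower one.

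Both rapamycin arrays lay above both control arrays for 9 members (23.7%), against 24.9% of all genes. Both lay below for 12 members (31.6%), against 21.8% of all genes. In the other 17 the groups overlapped. The replicates limited these comparisons: in 23 members (60.5%) the gap between the rapamycin arrays was wider than the difference between the groups, and this was so for 54.0% of all genes. Over the tested genes the arrays had medians from 6.87 to 6.91 log2 units. Over the tested members the medians were 7.66 and 7.76 in the controls and 7.73 and 7.54 with rapamycin.

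ATG7 was the member nearest to a call. ATG7 is the E1-like enzyme that activates both ATG12 and the ATG8 proteins. Its log2 values were 8.15 and 8.25 in the controls and 8.58 and 8.77 with rapamycin. The groups did not overlap, and the gap between the nearest arrays of the groups was wider than either gap within a group. The mean difference was 0.48 (SE 0.10, 95% interval 0.26 to 0.69, 1.39-fold), with an unadjusted p of 0.000696 and an adjusted p of 0.052. The adjusted p lay under 0.05 in 5 of the 13 settings that had no replicate block, among them 0.044 with a stricter filter on signal and 0.0382 over protein-coding genes alone, a setting added after the data were seen. It was 0.00427 without rapamycin replicate 1 (1 rapamycin array against the spread of the controls), but 0.231 and 0.145 without control replicate 1 or 2, and 0.177 without the mean-variance trend. The log2 difference stayed between 0.38 and 0.57 in these 13 settings.

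**Figure D2:**
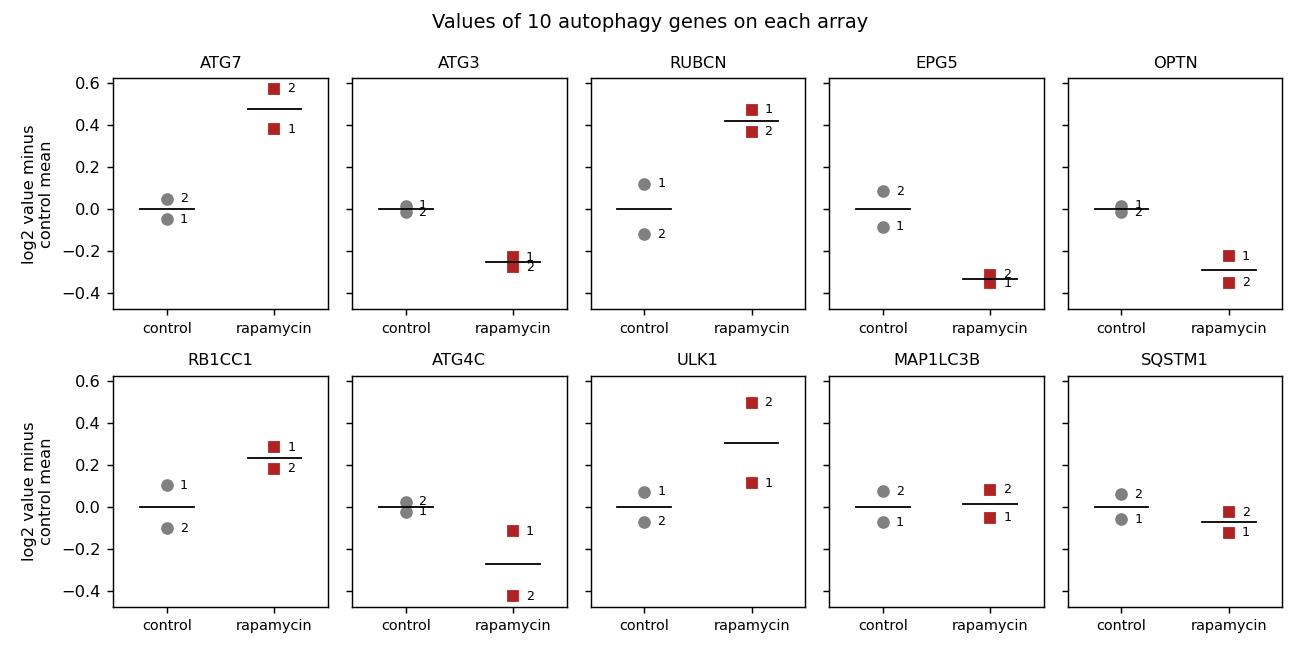
Log2 value of 10 autophagy genes on each of the 4 arrays, minus the control mean of that gene. Grey circles are control and red squares rapamycin arrays, numbered by replicate, and black lines are group means. ATG7, RUBCN and RB1CC1 lie higher with rapamycin, ATG3, EPG5 and OPTN lower, and MAP1LC3B and SQSTM1 overlap.

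Among the other enzymes and partners of conjugation the differences lay on both sides of 0. ATG3, the E2-like enzyme that hands ATG8 proteins to the lipid phosphatidylethanolamine, had values of 9.71 and 9.68 in the controls and 9.46 and 9.41 with rapamycin. Its arrays sat in 2 tight, separate pairs, with a difference of -0.25 (SE 0.07, 1.19-fold lower, unadjusted p = 0.00627, adjusted p = 0.136). ATG10, the E2-like enzyme for ATG12, read 6.23 and 5.91 in the controls and 6.14 and 6.24 with rapamycin, so its groups overlapped.

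ATG12, ATG5 and ATG16L1 form the E3-like complex that places the ATG8 proteins on the membrane. Their log2 differences were 0.09, -0.03 and 0.11, and ATG16L2, a relative of ATG16L1, stood at 0.07. Adjusted p-values of these genes ran from 0.648 for ATG16L1 to 0.93 for ATG5. The rapamycin arrays of ATG12 (8.12 and 8.10 against 7.98 and 8.06) and of ATG16L1 (7.15 and 7.20 against 7.04 and 7.09) lay just above the controls.

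The ATG4 proteases trim ATG8 proteins before conjugation and release them from the membrane afterwards. ATG4A, ATG4B and ATG4C each had both rapamycin arrays below both controls, as did 21.8% of all genes. Their log2 differences were -0.23, -0.16 and -0.27, with adjusted p-values from limma of 0.405, 0.591 and 0.307. Without rapamycin replicate 2 the difference of ATG4A was -0.096. ATG4C read 7.75 and 7.80 in the controls and 7.66 and 7.35 with rapamycin, and most of its difference came from rapamycin replicate 2 (unadjusted p = 0.0442, adjusted p = 0.307). Without that array its difference was -0.12. ATG4D differed by -0.0038, with values from 7.11 to 7.19 on all 4 arrays.

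Motif matches were read in the 250 bases upstream of the RefSeq gene start (GRCh38.p14), because TFEB and TFE3 bind the E-box CACGTG and FOXO factors bind the forkhead motif TGTTTAC. Promoters were found for 35 of the 40 members, with 44 entries. Read on both strands, CACGTG was present in 2 entries (4.55%), those of ATG3 and ATG14, against 6.34% of 35116 promoters. Its longer form TCACGTGA, every match of which is also a match of CACGTG, was in 0 of the 44, against 0.85%. TGTTTAC was in 1 entry (2.27%), that of CALCOCO2, against 2.98%. Over all tested genes with a promoter entry, the median log2 difference was 0.016 for 1227 genes with CACGTG and 0.009 for 9896 genes without. The stretches with a match are shown 5′ to 3′ on the gene's strand, with the motif or its reverse complement in capitals. ATG7 is shown for comparison as the 100 bases before its start, in which, as in its whole window, none of these motifs occurs. The stretches are ATG3 at chr3:112561963-112562000 (minus strand), ATG14 at chr14:55411831-55411871 (minus strand), CALCOCO2 at chr17:48830789-48830835 (plus strand) and ATG7 at chr3:11272297-11272396 (plus strand).
ATG3: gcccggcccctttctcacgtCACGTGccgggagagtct
ATG14: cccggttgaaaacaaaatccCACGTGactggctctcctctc
CALCOCO2: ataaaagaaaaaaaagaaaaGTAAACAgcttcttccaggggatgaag
ATG7: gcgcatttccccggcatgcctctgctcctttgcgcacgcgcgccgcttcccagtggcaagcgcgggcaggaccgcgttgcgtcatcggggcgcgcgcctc
The members with a match had log2 differences of -0.25 (ATG3), -0.10 (ATG14) and -0.16 (CALCOCO2), none of which passed the test.

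In the ULK complex, which starts autophagosome formation, 0 of 4 tested members passed. A positive difference was found in 3 of the 4, and in 7790 of the 14635 genes tested. ULK1, its kinase and a direct target of mTORC1, read 6.52 and 6.37 in the controls and 6.56 and 6.94 with rapamycin. The rapamycin arrays lay above the controls but 0.38 apart, and the difference was 0.30 (SE 0.14, 95% interval -0.02 to 0.63, adjusted p = 0.359). It shrank to 0.11 when rapamycin replicate 2 was left out, and grew to 0.50 when rapamycin replicate 1 was left out. The adjusted p was then 0.0472, for 1 rapamycin array against the spread of the controls.

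RB1CC1 (FIP200), the scaffold of the complex, read 8.84 and 8.63 in the controls and 9.02 and 8.92 with rapamycin, a difference of 0.23 (SE 0.09, unadjusted p = 0.0346, adjusted p = 0.277). It was 0.13 without control replicate 2. ATG13, the adaptor that mTORC1 also phosphorylates, lay the other way, at 8.13 on both control arrays and at 7.98 and 7.91 with rapamycin, a difference of -0.19 (adjusted p = 0.357). ATG101, the partner that stabilises ATG13, differed by 0.14. ULK2, the paralogue of ULK1, stayed within 4.65 to 4.78 log2 units on all 4 arrays.

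The class III PI3K complex makes the lipid PI3P, and its catalytic subunit PIK3C3 (VPS34), its regulatory subunit PIK3R4 (VPS15) and its scaffold BECN1 are shared between autophagy and endosomal sorting. Of the 7 members of this step, 0 passed the test. PIK3C3, PIK3R4 and BECN1 had log2 differences of -0.10, -0.06 and 0.03, and their groups overlapped. PIK3C3, the most negative of the step, read 9.72 and 9.78 in the controls and 9.74 and 9.56 with rapamycin, and its difference was -0.0077 without rapamycin replicate 2. ATG14, which directs the complex to autophagosomes, UVRAG, which directs it to endosomes, and AMBRA1, an activator of BECN1, differed by -0.10, -0.06 and -0.04. The 95% intervals of these 6 genes lay between -0.36 and 0.25.

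RUBCN (Rubicon), which binds the UVRAG form of the complex and restrains it, stood apart from the others. Its values were 6.06 and 5.82 in the controls and 6.42 and 6.31 with rapamycin, with no overlap. The difference was 0.42 (SE 0.13, 95% interval 0.12 to 0.72, 1.34-fold higher, unadjusted p = 0.0105), and the adjusted p was 0.168. In all 7 genes of this step the value was lower on rapamycin replicate 2 than on replicate 1, a direction seen in 51.7% of all genes.

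PI3P recruits the WIPI proteins, ATG2A and ATG2B carry lipids to the growing membrane, and ATG9A and VMP1 are scramblases that spread those lipids between leaflets. Of these 6 members 0 passed the test and 5 had a positive difference, as did 7790 of the 14635 genes tested. ATG2A (0.17), ATG2B (0.16), ATG9A (0.16) and WIPI2 (0.13) had adjusted p-values from 0.53 to 0.658. ATG2B stood at 0.039 and WIPI2 at -0.0084 without rapamycin replicate 2, and ATG9A at 0.036 without rapamycin replicate 1. ATG2A read 6.31 and 6.38 in the controls and 6.47 and 6.56 with rapamycin. VMP1 differed by 0.03.

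WIPI1 was the member of this step with a negative difference. It read 6.29 and 6.32 in the controls and 6.11 and 5.94 with rapamycin, a difference of -0.28 (SE 0.12, unadjusted p = 0.0504, adjusted p = 0.324). The groups did not overlap, and its paralogue WIPI2 had overlapping groups (7.01 and 6.97 against 6.98 and 7.27). The contrast between these paralogues was not tested.

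The ATG8 proteins coat the membrane and dock the receptors. None of the 3 tested members passed, and in each of them the groups overlapped. GABARAP read 10.43 and 10.59 in the controls and 10.35 and 10.57 with rapamycin, a difference of -0.05 (SE 0.09, adjusted p = 0.84). GABARAPL2 read 7.70 and 7.87 in the controls and 7.82 and 7.62 with rapamycin, a difference of -0.06 (adjusted p = 0.832).

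MAP1LC3B, which encodes the LC3B protein used as the common marker of autophagosomes, read 4.84 and 4.99 in the controls and 4.86 and 4.99 with rapamycin. The difference was 0.01 (SE 0.14, 95% interval -0.31 to 0.33). Its probe set lay next to the signal minimum, and LC3B has a near-identical copy, MAP1LC3B2, so these values can mix the copies. The MAP1LC3B2 probe set read 6.75 and 6.83 in the controls and 7.05 and 6.94 with rapamycin, a difference of 0.21 (adjusted p = 0.407). GABARAPL1 lay under the minimum, at 4.92 and 4.77 in the controls and 4.76 and 4.53 with rapamycin, and with no filter its adjusted p was 0.691.

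The selective receptors bind ubiquitinated cargo and ATG8 proteins at once. All 5 had a negative difference, with a median of -0.16, and 0 passed the test. A negative difference was found in 46.8% of all genes. Without rapamycin replicate 2 the differences were -0.23 for OPTN, -0.12 for SQSTM1, -0.042 for NBR1, -0.035 for TAX1BP1 and -0.023 for CALCOCO2. OPTN, a receptor for damaged mitochondria and bacteria, had values of 7.05 and 7.02 in the controls and 6.81 and 6.69 with rapamycin. Its groups were separate by more than the gap within either, with a difference of -0.29 (SE 0.11, 1.22-fold lower, unadjusted p = 0.0252, adjusted p = 0.245).

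SQSTM1 (p62), the receptor whose protein is itself degraded by autophagy, read 10.05 and 10.17 in the controls and 9.99 and 10.08 with rapamycin. The groups overlapped, and the difference was -0.08 (SE 0.08, 95% interval -0.25 to 0.10, adjusted p = 0.698). NBR1, a receptor related to SQSTM1, differed by -0.11.

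CALCOCO2 (NDP52) and TAX1BP1, related receptors for bacteria and protein aggregates, had their rapamycin arrays apart. CALCOCO2 read 9.60 and 9.62 in the controls and 9.59 and 9.30 with rapamycin. TAX1BP1 read 10.26 and 10.25 in the controls and 10.22 and 9.93 with rapamycin. In both genes rapamycin replicate 1 lay next to the controls and replicate 2 lay lower. The differences were -0.16 (adjusted p = 0.469) and -0.18 (adjusted p = 0.412). They were -0.02 and -0.03 without rapamycin replicate 2. Without rapamycin replicate 1 they were -0.30 (adjusted p = 0.0254) and -0.32 (adjusted p = 0.0168), each for 1 rapamycin array against the spread of the controls.

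For fusion with the lysosome, 0 of 2 members passed. EPG5, a tether between autophagosomes and late endosomes, read 7.32 and 7.49 in the controls and 7.05 and 7.09 with rapamycin. The groups were separate, with a difference of -0.33 (SE 0.11, 1.26-fold lower, unadjusted p = 0.0114, adjusted p = 0.175), the most negative of the 38. STX17, the autophagosomal SNARE, read 7.54 and 7.81 in the controls and 7.73 and 7.58 with rapamycin, a difference of -0.02 with overlapping groups.

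**Figure D3:**
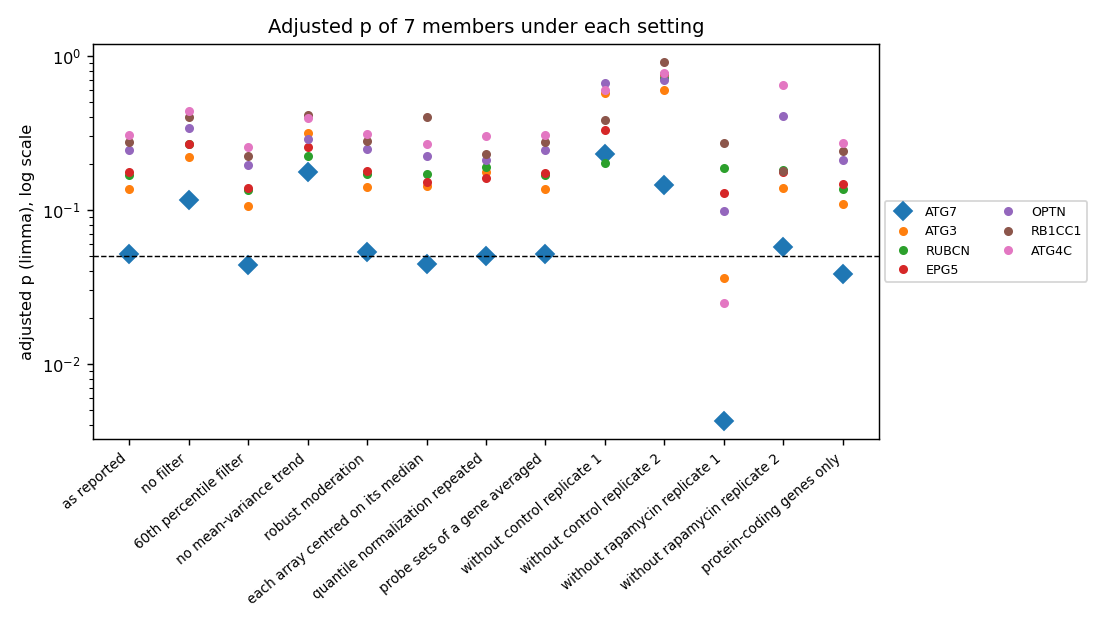
Adjusted p from limma, on a log axis, for the 7 members with an unadjusted p under 0.05, under the reported settings and 12 alternatives, the fit with a replicate block not among them. The dashed line is 0.05. ATG7 (diamonds) lies under it in 5 of these 13 settings, ATG3 and ATG4C (circles) only without rapamycin replicate 1, and the other 4 genes in none.

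A wider list of 65 other autophagy genes, of which 63 had a probe set and 59 were tested, gave 0 higher and 0 lower. At an unadjusted p under 0.05, 2 were higher and 9 lower, a total of 18.6%, against 15.4% of all genes (7.22% higher and 8.23% lower). Without rapamycin replicate 1, 7 of the 59 were called lower, when 5.86% of all genes were. Without rapamycin replicate 2, 1 (BCL2) was called higher and 0 lower, when 0.745% of all genes were called higher and 1.29% lower. Both counts set 1 rapamycin array against the spread of the controls. The list covers further core factors, organelle receptors, tethers and regulators, and its median log2 difference was -0.05. Among the 38 members 57.9% had a negative difference, and 19 to 23 of them did so with an array left out. In the wider list 66.1% did, against 46.8% of all genes. The most negative were RETREG1 (FAM134B), a receptor for endoplasmic reticulum, at -0.52 (SE 0.13, adjusted p = 0.107), CCPG1, another such receptor, at -0.46 (adjusted p = 0.388), and TP53INP1, a p53 target that binds LC3, at -0.46 (adjusted p = 0.19). CCPG1 stood at -0.12 without control replicate 2, and TP53INP1 at -0.29 without rapamycin replicate 2. RETREG1 read 5.81 and 5.97 in the controls and 5.32 and 5.42 with rapamycin, with separate groups.

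The most positive of these genes were VPS33A, a subunit of the HOPS tether, at 0.28 (adjusted p = 0.224, and 0.18 without control replicate 1), BCL2, which binds and inhibits BECN1, at 0.26 (adjusted p = 0.159), and MAP1LC3B2. The lowest adjusted p-values of the list belonged to 2 genes chosen after their values were seen. They were the mitophagy receptor BNIP3 (10.89 and 11.06 against 10.65 and 10.63, difference -0.34, adjusted p = 0.0676) and the stress-induced mTORC1 inhibitor SESN1 (9.07 and 9.08 against 8.78 and 8.52, difference -0.42, adjusted p = 0.0754).

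Among the transcription factors that drive autophagy and lysosome genes, TFEB read 5.78 and 5.81 in the controls and 5.74 and 5.85 with rapamycin (adjusted p = 0.995). TFE3 differed by -0.09 (adjusted p = 0.763). MITF lay under the signal minimum, at 4.34 on both control arrays and at 4.53 and 4.57 with rapamycin.

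**Figure D4:**
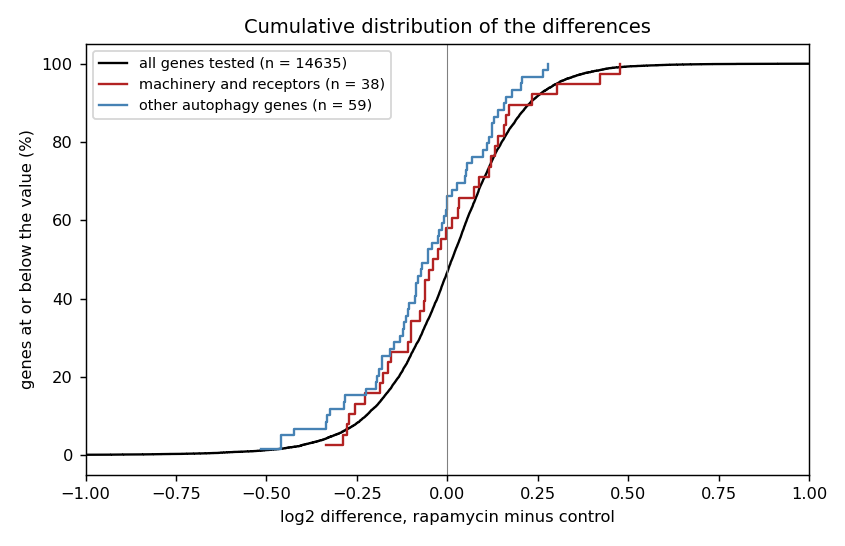
Cumulative share of genes (%) against the log2 difference between rapamycin and control. The black line is all 14635 genes tested, red the 38 tested members and blue the 59 other autophagy genes, with medians of 0.01, -0.03 and -0.05.

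Markers of myeloid and other cells were read from a fixed list. All 9 matched myeloid and MOLM-14 markers passed the signal minimum, and 0 of them passed the test. Of 24 matched markers of lymphoid, erythroid, platelet, epithelial and fibroblast cells, 12 lay under the minimum and 0 of the rest passed the test. In the controls the erythroid marker HBA2, the highest of these 24, read 7.95 and 7.97. The myeloid marker MPO, the lowest of the 9, read 6.70 and 6.63, and LYZ, also myeloid, read 11.95 and 11.79. Of the 6 matched erythroid and platelet markers 4 lay under the minimum, among them HBB (2.77 and 2.68) and ALAS2 (4.06 and 4.05). As 12 of the 24 passed the minimum, passing it does not mark a cell type. Array values do not show absence of a transcript, and the part of other cells in these results was not tested. Correlations between arrays were 0.9957 within the controls and 0.994 within rapamycin. With control replicates 1 and 2, rapamycin replicate 1 had correlations of 0.9943 and 0.9941, and rapamycin replicate 2 had lower ones, of 0.9929 and 0.9924.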

How the data were processed

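Expression was measured on 4 single-channel arrays. The values are log2 expression per probe set as deposited by the authors; the submitters' processing notes name RMA and Partek without versions or roles, and the scale was inferred from their range. Whole-transcript amplification and biotin labelling of total RNA are recorded per the labels' protocols. The genome build is not given in the sources used here. Of 25582 probe sets, 24244 had 1 symbol in the platform annotation and 1338 had none. All 40 members were found in RefSeq (GRCh38.p14) under the same symbol.

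Probe sets with a mean over the 4 arrays under the 40th percentile (4.86) were left out, and the highest-mean probe set stood for a gene. This left 14635 genes. limma 3.58.1 in R 4.3.3 fitted group as the only term, with eBayes and a mean-variance trend (2 residual and 7.27 prior degrees of freedom), two-sided, with Benjamini-Hochberg adjustment over all genes tested. The number of arrays limits the precision: the median SE of a log2 difference was 0.10 over the members and 0.12 over all genes. The code was tested on simulated data.

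The members and lists were chosen with earlier results of these data known. Values on every array are given for members with an unadjusted p under 0.05, for the most positive and the most negative difference of each step among tested members, for ULK1, MAP1LC3B and SQSTM1, and for further members that help a comparison. Other autophagy genes are named for the 3 largest differences in each direction, with TFEB, TFE3 and MITF, and BNIP3 and SESN1 were added after their values were seen. Alternatives changed the filter, the moderation, the scaling, the handling of probe sets, the replicate block and the arrays used. The replicate numbers come from the sample titles and were not taken as pairs.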

Additional observations from a re-analysis of the deposited data

How the results depend on the processing

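With 2 arrays a group, precision is set by the arrays, and signal near the minimum limits MAP1LC3B, ULK2 and GABARAPL1. The count of members that were lower was 0 in every setting that kept all 4 arrays. The count that were higher was 1 (ATG7) with the 60th percentile filter, with median centring of the arrays, with a repeated quantile normalization, with the replicate block and over protein-coding genes alone (a setting chosen after seeing the data), and 0 with no filter, without the trend, with robust moderation and with averaged probe sets. ATG7 had adjusted p-values of 0.044, 0.0444, 0.04999, 0.0249 and 0.0382 in those 5 settings. In the same order, the genes called higher among all genes numbered 73 of 9809, 79 of 14635, 69 of 14635, 116 of 14635 and 71 of 12429. Leaving out 1 array at a time gave 0 to 2 members higher and 0 to 4 lower. The upper ends came without rapamycin replicate 1 (ATG7 and ULK1 higher, ATG3, ATG4C, CALCOCO2 and TAX1BP1 lower), when all genes gave 443 higher and 857 lower. In these fits the lone array of a group is assumed to vary like the other group, whose 2 arrays give 1 residual degree of freedom. The cause was not tested.

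Other autophagy genes that were lower numbered 1 with median centring (SESN1), 2 with the replicate block (SESN1 and BNIP3) and 1 over protein-coding genes (BNIP3). They ran from 0 to 7 with an array left out, and those that were higher from 0 to 1 (BCL2, without rapamycin replicate 2). Over all genes, main counts of 61 higher and 126 lower became 17 and 43 with no filter and 4 and 13 without the trend. They became 79 and 238 with median centring, 116 and 205 with the replicate block, and 71 and 161 over 12429 protein-coding genes. With an array left out they ran from 29 to 443 higher and 47 to 857 lower. The same-numbered arrays did not deviate together (correlation -0.029 over genes tested), so the block is not read as a pairing.

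Of the 38 members, 25 kept their sign in all settings in which they were tested. MAP1LC3B turned to -0.017 with median centring and -0.016 with a repeated quantile normalization, and VMP1 to -0.00070 with median centring. With an array left out, 13 members changed sign. Their differences with all arrays were at most 0.133 in size, against a median size of 0.127 over the 38 members. The log2 differences ran from -0.066 to 0.13 for BECN1, -0.14 to 0.015 for PIK3R4, -0.23 to 0.029 for ATG14, -0.090 to 0.0098 for AMBRA1, -0.0084 to 0.27 for WIPI2, -0.058 to 0.12 for VMP1, -0.045 to 0.037 for ATG4D, -0.089 to 0.037 for ATG5, -0.039 to 0.28 for ATG10, -0.059 to 0.087 for MAP1LC3B, -0.16 to 0.057 for GABARAP, -0.16 to 0.035 for GABARAPL2 and -0.15 to 0.12 for STX17. Another 13 kept their sign but moved by over 1.5 times without some array. Their log2 differences ran from 0.11 to 0.50 for ULK1, 0.13 to 0.34 for RB1CC1, -0.19 to -0.0077 for PIK3C3, 0.039 to 0.29 for ATG2B, 0.036 to 0.28 for ATG9A, -0.36 to -0.096 for ATG4A, -0.43 to -0.12 for ATG4C, 0.046 to 0.13 for ATG12, 0.030 to 0.12 for ATG16L2, -0.13 to -0.016 for SQSTM1, -0.17 to -0.042 for NBR1, -0.30 to -0.023 for CALCOCO2 and -0.32 to -0.035 for TAX1BP1. The remaining 12, ATG7 and RUBCN among them, moved by less.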
